A study of Drosophila melanogaster with 17 samples.

Results

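The gene br, called broad, was followed in mushroom body neurons of Drosophila melanogaster through the 3 probe sets that the array's annotation assigns to it alone. These probe sets, 141430_at, 143087_at and 144385_at, are 3 of the 13966 tested, br being 1 of 10843 genes named by a single-symbol probe set, and each was kept apart because they may report different transcripts of the gene. The rule that chose them used the symbol and no measured value. The neurons came from animals of the genotype yw;UAS-mCD8::GFP/+;;OK107-GAL4, in which OK107-GAL4, a driver active in mushroom body neurons, puts a membrane-bound GFP on the cells, and every group carried the same alleles. Larvae of the third instar taken about 18 h before puparium formation, staged by the blue dye left in their guts, gave 7 arrays (-18 h). White prepupae gave 7 arrays (0 h), and prepupae aged for 5 h gave 3 arrays (5 h). Each array held RNA of 1 pool of 40 laser captures of about 100 cell bodies each, amplified before labelling. The labels call the replicates biological without giving the animals per pool, so p-values measure the spread between pools.

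The gene br encodes a family of transcription factors that share a BTB domain, through which they pair with other proteins, and differ in the zinc fingers that alternative splicing joins to it. It is a classic early gene of the steroid hormone ecdysone, directly induced by the receptor of EcR and usp, and it is needed for the larva to enter metamorphosis. Juvenile hormone acts on the same switch through Kr-h1. In the mushroom body the gamma neurons prune their larval axon branches at the start of metamorphosis, which requires the ecdysone receptor. The gene lies on chromosome X and has 16 transcripts in the RefSeq gene table of assembly Release 6. No table used here places the probe sets on these transcripts, so none is assigned to an isoform.

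The arrays were comparable in overall signal, with medians from 4.32 to 4.43 log2. The lower quartile of all probe sets, used here as a mark of the background, averaged 3.42, 3.39 and 3.34 log2 at -18 h, 0 h and 5 h. Of 11 mushroom body and neuron markers 9 were measured and 0 lay under that quartile in any group. Larval arrays 1, 4, 5, 6 and 7 carried salivary gland or muscle transcripts over 1 log2 unit above every 0 h array. The arrays were also divided into a set of higher and a set of lower signal of the hybridisation spike-ins, control RNAs added at the hybridisation step. The cut lay between means of 9 and 9.2 log2 in a range from 8.34 to 9.58, so the sets are not sharply separate. This division ran across the larval and 0 h groups, while all 5 h arrays were in the lower set.

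Of the br probe sets, 141430_at fell at each step of the series, and the other 2 did not pass the test at any step. At -18 h, 141430_at read 8.64, 8.59, 8.15, 9.22, 8.84, 8.03 and 8.24 log2 in larval arrays 1 to 7. At 0 h it read 7.66, 7.45, 7.45, 7.57, 6.99, 7.42 and 7.12 in arrays 1 to 7, and at 5 h 6.48, 6.43 and 6.47. Every 0 h array lay below every larval array, and every 5 h array below every 0 h array (gaps of 0.37 and 0.51 log2). Of all probe sets, 5.25% lay wholly lower at 0 h than in larvae, 4.44% wholly lower at 5 h than at 0 h, and 10.3% wholly lower at 5 h than in larvae. The larval arrays spread over 1.19 log2, the 0 h arrays over 0.67 and the 5 h arrays over 0.05. Captured as bulk RNA, the pools cannot tell fewer cells that hold the transcript from less of it per cell, here or below.

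The mean of 141430_at went from 8.53 ± 0.421 (SD, n = 7) at -18 h to 7.38 ± 0.239 (SD, n = 7) at 0 h, 2.22-fold lower (limma, adjusted p = 3.55e-06). The log2 change was -1.15 (SE 0.15), with a 95% confidence interval from -1.46 to -0.84. In this comparison 25.5% of all probe sets were called and 11.9% were called lower. The mean at 5 h was 6.46 ± 0.0255 log2 (SD, n = 3), 1.89-fold below 0 h (limma, adjusted p = 0.00718, 95% confidence interval of the log2 change -1.32 to -0.51). At that second step 3.77% of all probe sets were called, and 1.42% of all were called lower. From -18 h to 5 h the fall was 4.19-fold (limma, adjusted p = 8.25e-08), to 23.9% of the larval signal, where 20.0% were called, 9.06% of all probe sets being lower. An exact two-sided permutation test of the group means gave p = 0.000583 for the first step and p = 0.0167 for the second, each the smallest that the number of arrays allows. By limma's F test over both steps the probe set changed (adjusted p = 6.51e-08), as did 27.1% of all probe sets.

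**Figure D1:**
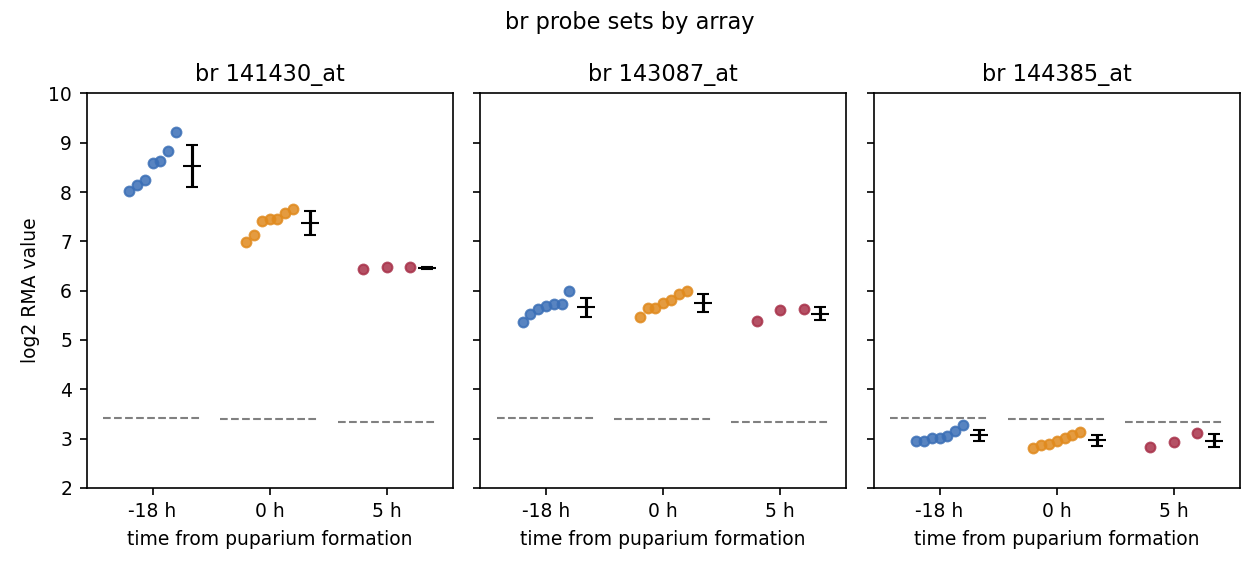
log2 RMA values of the 3 br probe sets on each array (points, sorted within a group and not in replicate order) at -18 h, 0 h and 5 h, with the mean ± SD beside them and the mean lower quartile of all probe sets as a dashed line. 141430_at steps down from 8.53 to 7.38 to 6.46 without overlap between groups, while 143087_at has group means between 5.54 and 5.75 and 144385_at lies under the dashed line; levels of different probe sets are not comparable with each other.

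The first step held 55.7% of the whole log2 change of 141430_at. Per hour, the change was -0.06 log2 before puparium formation and -0.18 after it. The labels give the 18 h of the larvae as approximate. The difference between these rates, a comparison chosen after the values were seen, did not pass (limma, unadjusted p = 0.0109, adjusted p = 0.116), and 6.54% of all probe sets passed it.

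The probe set 143087_at showed no called change. At -18 h it ran from 5.36 up to 6 log2 with a median of 5.68, at 0 h from 5.47 to 5.99 with a median of 5.75, and at 5 h it read 5.61, 5.62 and 5.38. The 3 groups overlapped. Its log2 change was 0.09 from -18 h to 0 h (limma, adjusted p = 0.571) with a 95% confidence interval from -0.11 to 0.29, and -0.21 from 0 h to 5 h (limma, adjusted p = 0.493) with an interval from -0.47 to 0.04. Its first-step interval thus lies above the whole interval of 141430_at. Its level stood more than 2 log2 units above the lower quartile of the arrays in every group mean.

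The probe set 144385_at read near the background on every array. It ran from 2.95 to 3.28 log2 at -18 h and from 2.80 to 3.13 at 0 h, with 2.93, 2.83 and 3.11 at 5 h, and all 3 group means lay under the lower quartile. The array's 8 mouse and yeast control probe sets, which have no counterpart in the fly, ran from 2.46 to 3.75 log2 across all arrays. Its log2 change was -0.10 at the first step (limma, adjusted p = 0.364) and -0.00 at the second (limma, adjusted p = 0.991). At this signal the probe set gives no measure of whether its transcripts changed.

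Whether the probe sets moved unequally was tested on their difference within each array, which compares changes and not levels. The difference of 141430_at from 143087_at went from 2.87 ± 0.593 log2 (SD, n = 7) at -18 h to 1.63 ± 0.359 (SD, n = 7) at 0 h, a shift of -1.24 (exact permutation test, adjusted p = 0.00262 over 9 tests). The arrays of the 2 groups did not overlap, with 2.24 to 3.86 in larvae and 1.06 to 2.19 at 0 h. From 0 h to 5 h the difference fell by 0.70 log2, to 0.92 ± 0.139 (SD, n = 3), and the exact permutation test gave an adjusted p of 0.05, not below the threshold. Over the whole series the shift was -1.94 (exact permutation test, adjusted p = 0.03). Against 144385_at, the shifts of 141430_at were -1.05, -0.91 and -1.96 in the same order (exact permutation tests, adjusted p = 0.00262, 0.03 and 0.03). As 144385_at read near the background, these shifts repeat the fall of 141430_at itself. They do not tell whether the transcripts of 144385_at changed otherwise, and comparisons of 143087_at with it have the same limit. The changes of 143087_at and 144385_at differed by 0.19, -0.21 and -0.02 log2, and none of these passed (exact permutation tests, adjusted p = 0.145, 0.225 and 0.933). With 7 arrays against 3 the smallest unadjusted p is 0.0167.

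Across the 17 arrays, 141430_at and 143087_at had a Pearson correlation of -0.10, and of -0.64 after the group means were taken out. The larval array with the highest 141430_at value, array 4, had the lowest 143087_at value of its group (5.36). Both come from the same arrays and share their normalisation, so this is a description only. Genes with only part of their probe sets called were common on this array. Of 179 genes with 3 probe sets, 76 had at least 1 called between -18 h and 0 h, of which 65 had exactly 1 and 0 had all 3. At the second step 14 of the 179 had 1 called, and 0 had more. Of all probe sets, 25.5% were called at the first step and 3.77% at the second. A probe set that is not called may lie at the background, so these counts do not measure disagreement.

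Among all probe sets, 41 fell at both successive steps (0.294%), and 25 of them (0.179% of all) did so without overlap between neighbouring groups. The br probe set 141430_at belongs to both counts, and ranked 13th of the 41 by its change from -18 h to 5 h. Its fall ranked 188th of all probe sets at the first step and 55th at the second. In contrast, 67 probe sets (0.48%) rose at both steps.

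**Figure D2:**
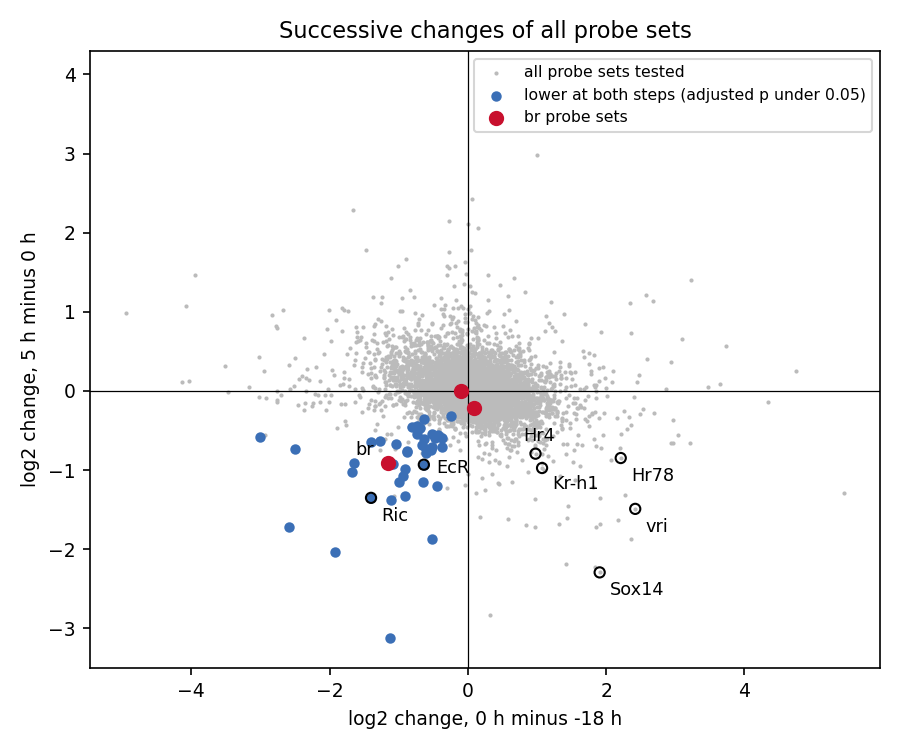
log2 change from -18 h to 0 h (x axis) against the change from 0 h to 5 h (y axis) for each probe set tested (grey), with the 41 lower at both steps in blue, the 3 br probe sets in red and selected regulators circled. One br probe set sits at -1.15 and -0.92 among the blue points and the other 2 near the origin, while Sox14, vri, Hr78, Hr4 and Kr-h1 rose and then fell.

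The genes whose pattern over the 17 arrays was most like that of 141430_at were Ric, Ca-alpha1D and CAP, out of 4025 named probe sets with at least the median level. Ric, a small GTPase that binds calmodulin, had a Pearson r of 0.97 with it and went from 9.79 ± 0.182 (SD, n = 7) to 8.39 ± 0.347 (SD, n = 7) and 7.04 ± 0.129 log2 (SD, n = 3). It fell 2.64-fold and then 2.55-fold (limma, adjusted p = 2.25e-08 and 1.89e-05). Ca-alpha1D, a voltage-gated calcium channel subunit (r = 0.96), fell 1.56-fold and 1.53-fold, and CAP, an adaptor protein of the actin cytoskeleton (r = 0.95), fell 3.19-fold and 2.04-fold. Ca-alpha1D did not keep its second call without 5 h arrays 2 or 3 (adjusted p up to 0.118 over its alternatives). The most opposite patterns were those of SmD3, a core protein of the spliceosome (r = -0.95), and Vps20, an ESCRT-III subunit (r = -0.93), which rose 1.68-fold and 1.47-fold at 0 h and a further 1.45-fold and 1.41-fold at 5 h. Their second calls did not hold without 5 h array 1, and that of Vps20 also not without array 2 (adjusted p up to 0.0599 and 0.0809). With the group means taken out, r was 0.75, 0.72 and 0.55 for Ric, Ca-alpha1D and CAP.

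For 143087_at, the nearest patterns were those of spri (r = 0.82), hb (0.80) and Cpr62Bb (0.80), and the most opposite those of Hmgs (-0.80) and Amph (-0.78). With its signal near the background, 144385_at gives no measure of a pattern of its transcripts. Its nearest were kipf (0.72), Fam92 (0.70) and fs(1)Yb (0.70), with Surf6 (-0.78) and Usp5 (-0.77) opposite. None of these genes was called at either step except Hmgs, an enzyme of the mevalonate pathway, which fell 1.46-fold at 0 h (limma, adjusted p = 0.0434). That call did not hold in 15 of 27 alternatives. These correlations follow the spread between arrays within groups, with r = 0.80 for spri and -0.80 for Hmgs after the group means were removed.

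Several regulators of the ecdysone response moved the other way from br at puparium formation. Of 15 measured of 18 ecdysone regulators, 6 rose and 1 fell at 0 h, against 13.6% higher and 11.9% lower of all probe sets, and their median change was 0.03 against -0.02 for all probe sets. Sox14, an ecdysone-induced factor needed for pruning, read 6.78 ± 0.332 in larvae and 8.68 ± 0.352 at 0 h (log2, SD, n = 7 each), a 3.75-fold rise (limma, adjusted p = 4.1e-09). The nuclear receptor gene Hr78 rose 4.63-fold, vri, a repressor of the circadian clock also induced by ecdysone, 5.35-fold, and Hr4, a nuclear receptor that tunes the response, 1.97-fold. Kr-h1, the juvenile hormone response factor that holds back br in the larval epidermis, rose 2.10-fold, with 5.11 ± 0.419 in larvae and 6.19 ± 0.367 at 0 h (log2, SD, n = 7 each; limma, adjusted p = 5.8e-05). rig, a partner of nuclear receptors, rose 1.32-fold, a call that arrays of lower spike-in signal alone did not give (adjusted p = 0.268).

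From 0 h to 5 h, 0 of the 15 rose and 6 fell, against 2.36% higher and 1.42% lower of all probe sets, with a median change of -0.20 against -0.04. Sox14 fell 4.90-fold, vri 2.81-fold, Hr78 1.80-fold, Hr4 1.73-fold and Kr-h1 1.96-fold (limma, adjusted p = 3.33e-07, 3.34e-05, 0.000248, 0.00216 and 0.0148). These 5 had thus risen and then fallen, whereas br 141430_at fell at both steps. The call of Kr-h1 at this step did not hold without 5 h array 1 or 2 (adjusted p up to 0.126).

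EcR, the ecdysone receptor itself, was the sixth to fall, and the only one of these regulators lower at both steps. Its probe set 154377_at went from 5.78 ± 0.549 (SD, n = 7) to 5.14 ± 0.107 (SD, n = 7) and 4.21 ± 0.232 log2 (SD, n = 3), 1.55-fold and then 1.91-fold lower (limma, adjusted p = 0.00887 and 0.0203). Among the arrays of lower spike-in signal alone the first step had adjusted p = 0.362. The second did not hold there, with a block for the spike-in sets, or without 5 h array 2 or 3 (adjusted p up to 0.133). Over the whole series 154377_at changed by -1.57 log2 (limma, adjusted p = 2.56e-05), a call kept in all 26 alternatives. As with br, the other EcR probe set, 146672_at, was not called, with changes of -0.15 and -0.05. usp, the partner of EcR, changed by -0.22 and -0.16 log2 (limma, adjusted p = 0.129 and 0.663), and over the whole series by -0.38 (adjusted p = 0.042), a call lost in 11 of 26 alternatives, 8 of them with a single larval or 5 h array left out.

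The later genes of the ecdysone cascade showed no called change. ftz-f1, the competence factor for the later prepupal response, changed by -0.27 at 0 h (limma, adjusted p = 0.0715) and by 0.32 at 5 h (0.286), at levels under 3 log2 that lie at the background. Eip93F, a factor of the later pupa, changed by 0.14 and -0.20 (limma, adjusted p = 0.275 and 0.435), also near the background. Hr3 changed by -0.13 and 0.03, and Hr39 by 0.03 and -0.23, and none of these passed (limma, adjusted p = 0.292, 0.941, 0.847 and 0.398). Hr39, at 2.51 to 2.74 log2 in the group means, lay under the lower quartile, where a change could be missed. Hr3, at 3.57 to 3.71 log2, lay within the range of the mouse and yeast controls (up to 3.75), with the same limit. Of the juvenile hormone list 6 of 9 genes were measured, of which 2 rose at 0 h and 2 fell at 5 h, in both cases Jhbp2 and Kr-h1, beside 13.6% of all probe sets higher at 0 h and 1.42% lower at 5 h. Jhbp2 rose 43.3-fold at 0 h and fell 2.44-fold at 5 h (limma, adjusted p = 6.31e-21 and 1.66e-07). The receptor genes Met and gce changed by -0.06 and 0.10 at 0 h (limma, adjusted p = 0.624 and 0.489), and Jheh2, an epoxide hydrolase, by -0.23 (0.0974). In the group means gce, at 3.38 to 3.47 log2, lay within the range of those controls and Met, at 3.74 to 3.84, near its top, where a change could be missed. At 5 h Met changed by -0.04 and jhamt, a methyltransferase of juvenile hormone synthesis, by -0.06, and neither passed (limma, adjusted p = 0.909 and 0.872), jhamt being at the background with group means of 2.52 to 2.58 log2.

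**Figure D3:**
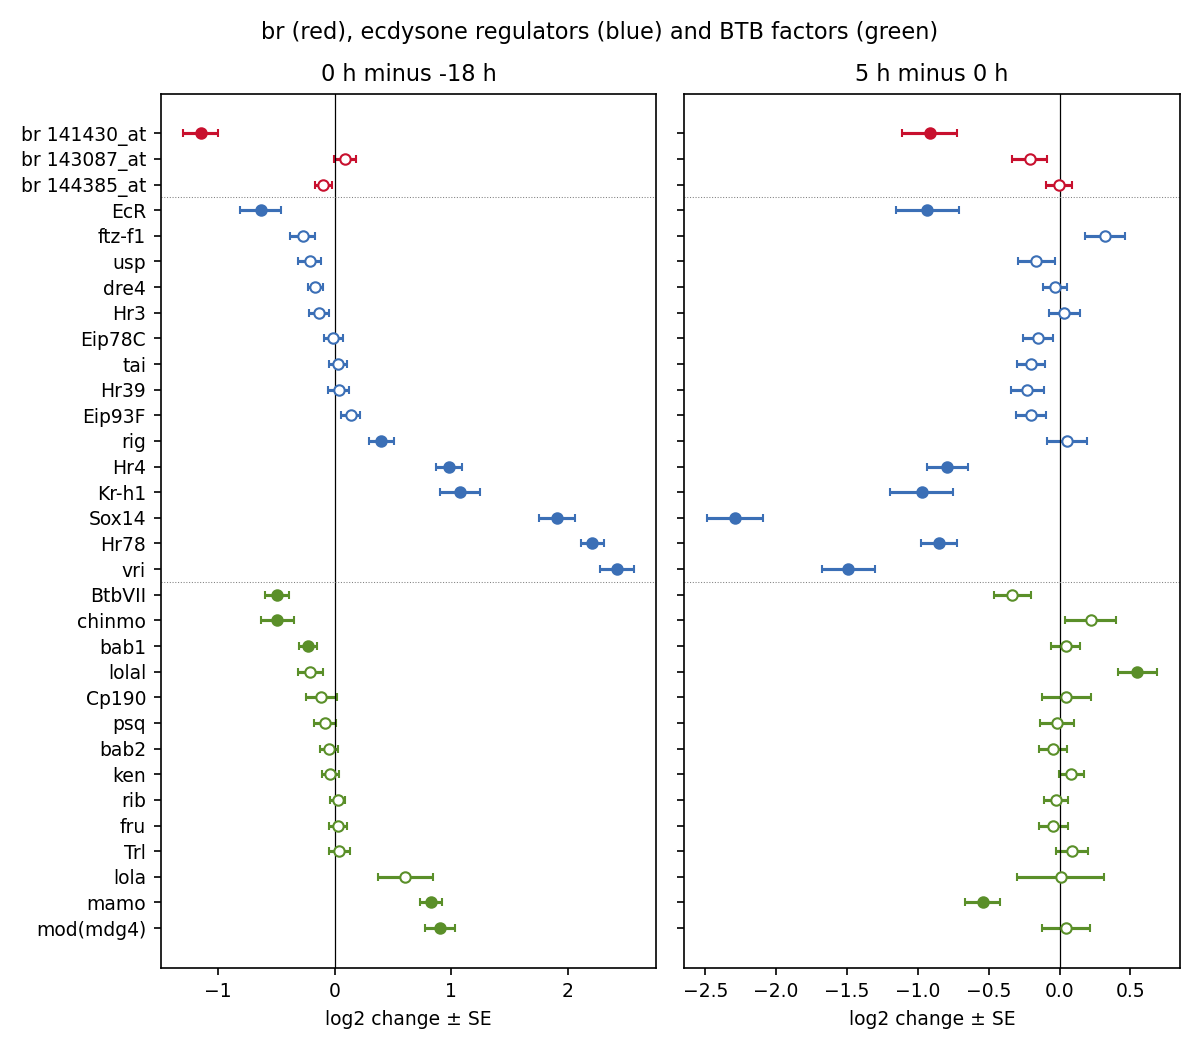
log2 change ± SE of the 3 br probe sets (red), the measured ecdysone regulators (blue) and other BTB factors (green) from -18 h to 0 h (left) and from 0 h to 5 h (right), with filled points for adjusted p under 0.05. br 141430_at and EcR are filled and left of zero in both panels, while Sox14, vri, Hr78, Hr4 and Kr-h1 are right of zero on the left and left of it on the right; the horizontal scales of the panels differ.

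Other transcription factors with a BTB domain moved in both directions. Of 14 measured of 16, 2 rose and 3 fell at 0 h, with a median change of -0.04, and 1 rose and 1 fell at 5 h, with a median of 0.03. Of all probe sets 13.6% were higher and 11.9% lower at 0 h, and 2.36% and 1.42% at 5 h, so that the first-step counts lie near the background. mod(mdg4), a chromatin insulator protein, rose 1.87-fold at 0 h (limma, adjusted p = 1.65e-05). mamo, a zinc finger factor of mushroom body neuron identity, was 1.77-fold higher at 0 h, with 6.03 ± 0.264 log2 (SD, n = 7), than in larvae (limma, adjusted p = 8.75e-07). At 5 h it read 5.48 ± 0.0397 log2 (SD, n = 3), 1.46-fold lower (limma, adjusted p = 0.014). This second call of mamo did not hold without any 1 of the 5 h arrays or with the replicate number as a block (adjusted p up to 0.102). BtbVII fell 1.41-fold at 0 h and chinmo, which sets the birth-order identity of these neurons, 1.41-fold (limma, adjusted p = 0.000741 and 0.0117), with adjusted p = 0.275 and 0.19 among the arrays of lower spike-in signal alone. bab1 fell 1.17-fold (limma, adjusted p = 0.0346), a call lost in 12 of 27 alternatives. lolal, a BTB protein that binds the GAGA factor, rose 1.46-fold at 5 h (limma, adjusted p = 0.0289), a call lost in 7 of 26. Calls differed between probe sets of a gene here too. lola, with 8 probe sets, was represented by one that missed the threshold at 0 h (0.61 log2, limma, adjusted p = 0.0683). Its probe set 151592_at fell by 0.82 log2 (limma, adjusted p = 0.000164), a call kept in all 27 alternatives. Hr4, mamo and chinmo likewise had further probe sets with smaller changes. At 5 h BtbVII changed by -0.33 and chinmo by 0.22 log2, and neither passed (limma, adjusted p = 0.221 and 0.688). Over the whole series BtbVII fell by 0.83 log2 (limma, adjusted p = 8.18e-05), a call kept in all 26 alternatives.

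The temporal identity list overlaps with the lists above. Of 9 measured of 10, 2 rose and 1 fell at 0 h (mamo and Syp, and chinmo), and 1 fell at 5 h, mamo. The first-step counts lie near the shares of all probe sets, 13.6% higher and 11.9% lower, and at 5 h 1.42% of all were called lower. Syp, an RNA-binding protein of late-born neurons, rose 1.43-fold at 0 h (limma, adjusted p = 0.00377), a call lost in the higher spike-in set and without the larval arrays of other-tissue signal (adjusted p up to 0.443). Over the whole series Syp rose by 0.83 log2 (limma, adjusted p = 0.000826), a call kept in all 26 alternatives. Imp, its early counterpart, changed by -0.08 and then -0.22 log2 (limma, adjusted p = 0.553 and 0.359). The zinc finger gene jim changed by -0.17 and -0.21 (limma, adjusted p = 0.173 and 0.433), and over the whole series by -0.38 (adjusted p = 0.0191), a call lost in 6 of 26 alternatives, among them without 5 h array 1 or 3.

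Genes known as targets of Broad proteins in other fly tissues were measured in 11 of 16 cases, and 4 rose and 2 fell at 0 h, with a median change of 0.19, beside 13.6% higher, 11.9% lower and a median of -0.02 over all probe sets. Dronc, an initiator caspase, rose 3.73-fold (limma, adjusted p = 1.26e-12), and Dark, its activator, 1.84-fold (3.16e-05). crq, a receptor for dying cells, rose 2.37-fold. It is also a marker of hemocytes, among which Pxn rose 2.02-fold (limma, adjusted p = 1.55e-06) and Hml and srp lay under the lower quartile, and the part of hemocytes in the rise of crq was not tested. Among the other targets, MsrA, a methionine sulfoxide reductase, rose 1.27-fold, with adjusted p = 0.384 among the arrays of lower spike-in signal alone. Ddc, an enzyme of dopamine and cuticle synthesis, read 7.44 ± 0.375 in larvae and 5.89 ± 0.311 at 0 h (log2, SD, n = 7 each), a 2.94-fold fall (limma, adjusted p = 7.1e-08). The other fall was that of Sgs3, a salivary glue gene that read 5.73 ± 3.199 log2 (SD, n = 7) in larvae and lay at the background at 0 h (limma, adjusted p = 0.0334). This call was lost in 9 of 26 alternatives, 7 of them with a single array left out (-18 h arrays 1 and 4 and 0 h arrays 1, 2, 4, 5 and 6), and the change ran from -4.41 to -0.43 log2. From 0 h to 5 h, 0 of the 11 were called in either direction, where 3.77% of all probe sets were. Dronc changed by 0.29, Fbp1 by 1.25, crq by 0.49 and Eig71Ea by -0.19 log2 in that step (limma, adjusted p = 0.238, 0.246, 0.463 and 0.642). Eig71Ea (2.95 log2 at 0 h), Eig71Ed, Sgs3 and Sgs4 lay under the lower quartile at 0 h and 5 h, where a change could be missed.

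The larval arrays differed in salivary gland and muscle signal, and the 3 with the highest 141430_at values were among the 5 with such signal. As background, br is itself strongly expressed in larval salivary glands. Larval array 6, with the highest glue mean (11.5 log2) and the highest Mlc2, a muscle myosin light chain (11.2), had the lowest 141430_at value of its group, 8.03. Larval arrays 4 and 1, with the next highest glue means (7.14 and 7.20), had 9.22 and 8.64, the highest and the third highest 141430_at values. Larval array 5, with Mlc2 at 7.06 and no raised glue signal, read 8.84, and array 7, with Mlc2 at 9.37, read 8.24. Larval arrays 2 and 3, where neither signal passed that mark, read 8.59 and 8.15, both above every 0 h array, and without the other 5 larval arrays the change at 0 h was -0.99 (limma, adjusted p = 0.000184). Fat body signal was no part of that mark, and the fat body marker means of arrays 2 and 3 were 6.33 and 6.71 log2, beside 4.81 to 6.41 at 0 h. Mlc2 in array 3 was 5.4 log2, beside at most 5.15 at 0 h. The summed linear level of 6 measured of 8 salivary gland markers spanned 130 to 20903 in larvae, 108 to 133 in white prepupae and 107 to 117 in the 5 h group. In both later groups Sgs3, Sgs4 and Sgs5 lay under the lower quartile. For 7 of 10 muscle markers the range was 101 to 2618, 92.7 to 108 and 106 to 116, and for 5 of 8 fat body markers 315 to 2458, 171 to 714 and 497 to 1819.

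**Figure D4:**
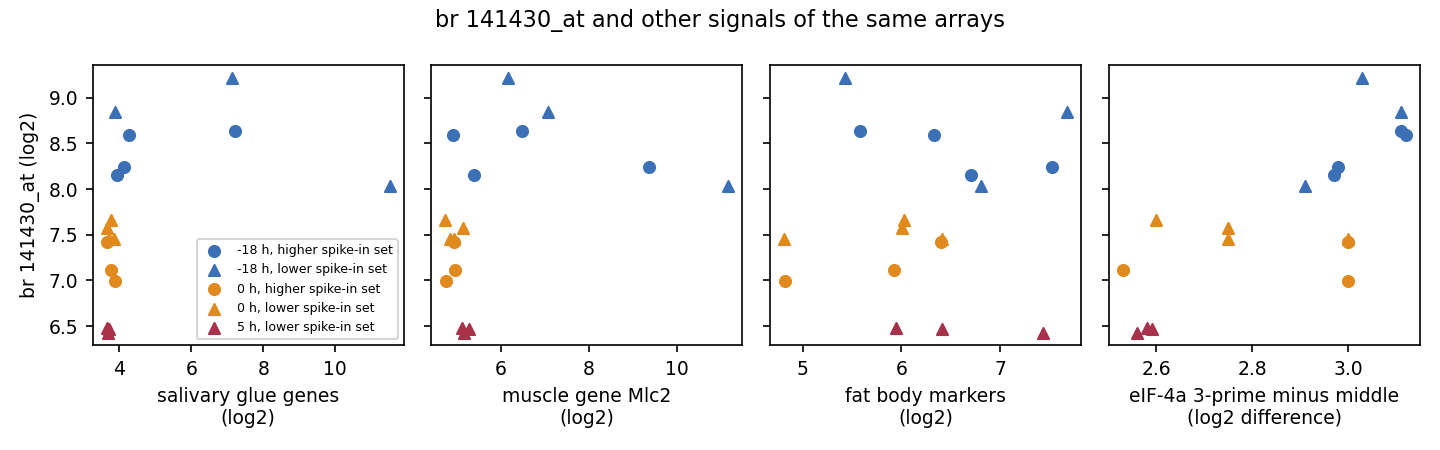
br 141430_at (log2) on each array against the mean of 5 salivary glue genes, the muscle gene Mlc2, the mean of the fat body markers and the 3-prime minus middle difference of the eIF-4a control, coloured by group, with circles for the higher and triangles for the lower hybridisation spike-in set. The vertical values are the same in all 4 panels, and the larval arrays spread from 3.88 to 11.5 log2 in glue signal and from 4.92 to 11.2 in Mlc2, while the 0 h arrays span 2.53 to 3 log2 in the eIF-4a difference.

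Markers of dividing precursors and glia were also set beside br. The mean of 9 measured of 10 neuroblast and cell cycle markers spanned 4.55 to 4.82 log2 in larvae, 4.20 to 4.57 in white prepupae and 4.29 to 4.38 in the 5 h group, with 3 lower and 0 higher at 0 h (11.9% and 13.6% of all probe sets) and no call at 5 h. Their summed linear level ran from 377 to 516, 258 to 381 and 297 to 312, and ase, insc and grh lay under the lower quartile in every group. The glia markers, 8 measured of 9, summed to 584 to 822 in larvae, 473 to 733 at 0 h and 714 to 772 at 5 h, with 1 called higher and 2 lower at 0 h and 2 higher at 5 h. The 8 hemocyte markers summed to 137 to 195, 186 to 265 and 229 to 258, with 2 called higher and 2 lower at 0 h and 0 at 5 h. The mean of the 9 measured mushroom body and neuron markers spanned 6.71 to 7.36 log2 in larvae, 6.66 to 6.90 at 0 h and 6.53 to 6.65 at 5 h. Of these, 2 were called lower (prt and mub) and 0 higher at 0 h, and 1 lower (prt) and 1 higher (toy) at 5 h. At 5 h 2.36% of all probe sets were called higher and 1.42% lower. The part of these cells in the fall of 141430_at was not tested.

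The fall of 141430_at was also present within sets of arrays of like hybridisation signal. The arrays were divided at 9.10 log2, the widest gap in the mean of the hybridisation spike-ins. This put 4 larval and 3 0 h arrays in the higher set and 3, 4 and 3 arrays in the lower. In the higher set 141430_at ran from 8.15 to 8.64 in larvae and from 6.99 to 7.42 at 0 h, a change of -1.23 (limma, adjusted p = 8.06e-05). In the lower set it ran from 8.03 to 9.22, 7.45 to 7.66 and 6.43 to 6.48, with changes of -1.16 and -1.07 (limma, adjusted p = 0.00181 and 0.018). The 3-prime minus middle difference of the eIF-4a control, a measure of how far the signal leans to the end of transcripts, had medians of 3.03, 2.75 and 2.58 log2 at -18 h, 0 h and 5 h, with 0 h arrays reaching 3 log2 inside the larval span of 2.91 to 3.12. Larval arrays 6, 3 and 7 had its lowest values of the group (2.91, 2.97 and 2.98) and the lowest 141430_at values. Array 4, the highest larval array in 141430_at, read 3.03, below arrays 1, 2 and 5. Among the 0 h arrays, array 5 had the lowest 141430_at value (6.99) with a difference of 3 log2. Array 1 of that group had the highest 141430_at value (7.66) with 2.60. For the actin control the same difference had medians of 3.38, 3.24 and 2.76 log2 at -18 h, 0 h and 5 h. Every 5 h array (2.65 to 2.86) lay below every larval array (3.04 to 3.84), and the 0 h arrays ran from 2.36 to 3.45. Larval arrays 4 and 5, the highest and second highest in 141430_at, had its highest values (3.84 and 3.77). Array 1, the third highest in 141430_at, had 3.06. The part of either difference in the fall of 141430_at was not tested.

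The genes next to br on chromosome X, taken as the 3 protein-coding genes on each side in the RefSeq table, showed no called fall. On one side inc, an adaptor of Cullin ligases, rose by 0.73 log2 at 0 h (limma, adjusted p = 0.00106), Nmdar2, a glutamate receptor subunit, changed by -0.00 and CG14795 by -0.39 (0.998 and 0.223). On the other side dor, a subunit of the vacuolar tethering complex, rose by 0.49 (limma, adjusted p = 0.000433), CG3740 changed by -0.01 and hfw by -0.10 (0.942 and 0.333). Neither rise was called without the larval arrays of other-tissue signal, nor that of inc in the higher spike-in set (adjusted p up to 0.183 for inc and 0.0593 for dor). At 5 h none of the 6 was called against 0 h. Of all probe sets 13.6% were called higher and 11.9% lower at 0 h, and 3.77% were called at 5 h. The means of hfw in every group, and of CG3740 at -18 h and 0 h, lay under the lower quartile, where a fall could be missed. No coding gene of the table lies wholly inside br.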

How the data were processed

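The deposited log2 values are RMA summaries that the authors made with Affymetrix Expression Console (source: the submitters' processing notes). The sources used here give neither versions nor whether all 17 arrays were normalised together. From 14010 probe sets 44 controls were removed, which left 13966 to test. Names came from the array's annotation, updated through the RefSeq gene table (assembly Release 6). Of the tested probe sets 12442 had 1 symbol, 327 had more and 1197 had none. Arrays have no read depth, and their number limits the precision.

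Each probe set was modelled on the 3 groups in limma 3.58.1 (lmFit, eBayes; R 4.3.3), two-sided, with Benjamini-Hochberg adjustment within a contrast across every probe set tested and a threshold of 0.05. Differences between br probe sets were tested with exact permutation tests in SciPy 1.17.1, adjusted over 9 tests. A listed gene was represented by its brightest probe set over all arrays. Named were br, the 3 most like and 2 most opposite genes per br probe set by Pearson correlation, per list and step the 4 of lowest p, and a set of fixed regulators, and br's neighbours by position. Other members named were chosen after their values were seen. The members and lists were chosen with earlier results of these data known. The code was tested on simulated data. Alternatives covered the eBayes setting, the samples fitted, normalisation, dim probe sets, blocks, spike-in sets, other-tissue arrays and single arrays left out.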

Additional observations from a re-analysis of the deposited data

How the results depend on the processing

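The changes of 141430_at kept their direction and their call in all alternatives run, 27 at the first step and 26 at the second and over the whole series, with adjusted p at most 0.00181, 0.0437 and 3.85e-05 by limma. Leaving out single arrays gave changes from -1.23 to -1.04, -0.98 to -0.87 and -2.15 to -1.95. No change of 143087_at or 144385_at was called in any alternative. The replicate numbers did not pair the arrays, since same-numbered arrays deviated together with correlations from -0.281 to 0.367, and a fit with a replicate block gave 141430_at changes of -1.15, -0.95 and -2.10 for the first step, the second step and the whole series (limma, adjusted p = 6.5e-06, 0.00942 and 1.38e-06). The count of called probe sets at the first step was 2244 within the higher spike-in set against 3568 in all, and at the second step it ran from 304 to 562 with single arrays left out, the lowest 3 being 332, 311 and 304 without 5 h arrays 1, 2 and 3. The shifts of 141430_at against 143087_at, and against 144385_at near the background, kept their direction but not their call in the smaller sets. There, fewer arrays raise the smallest possible p. Within the higher set the first-step shifts were -1.31 and -1.07 (adjusted p = 0.0857 each by exact permutation). Within the lower set they were -1.32 and -1.13 at the first step, -1.05 for 144385_at at the second and -2.24 and -2.18 over the series (exact permutation, adjusted p = 0.129, 0.129, 0.129, 0.15 and 0.15). Without the larval arrays of other-tissue signal they were -1.04 and -0.80, -0.91 for 144385_at, and -1.74 and -1.72 (exact permutation, adjusted p = 0.125, 0.125, 0.125, 0.25 and 0.25). Quantile normalisation brought the second-step shift against 143087_at to -0.73, below the threshold (exact permutation, adjusted p = 0.025), as did leaving out larval array 7 (-0.70, adjusted p = 0.0429) or 0 h array 5 (-0.80, adjusted p = 0.0357). With single arrays left out the shifts against 143087_at ran from -1.34 to -1.07, -0.80 to -0.61 and -2.05 to -1.78. Against 144385_at they ran from -1.13 to -0.92, -0.99 to -0.84 and -2.04 to -1.83, and without any 1 of the 5 h arrays the 5 h tests reached adjusted p of 0.0833 to 0.1. The first-step difference between 143087_at and 144385_at ran from 0.16 to 0.26, and was called without larval array 7 (exact permutation, adjusted p = 0.0357). For the listed genes, markers, neighbours and other named probe sets, 110 changes were called, of which 60 kept their call in every alternative, 50 lost it in some and 0 reversed.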

Other observations

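Beside br, the probe sets that fell at both steps included several genes of neuronal excitability and transmission, named here after their values were seen. prt, a vesicular transporter gene of the mushroom body, had the largest fall of the 41 from -18 h to 5 h, by 4.31 log2 in 2 steps of -2.59 and -1.73. Rdl, a GABA receptor subunit, changed by -2.51 and -0.74, Tomosyn, which restrains vesicle release, by -0.99 and -1.15, and Sh, a potassium channel, by -0.61 and -0.78. The second call of Rdl was lost with a block for the spike-in sets and without 5 h array 2 or 3 (limma, adjusted p up to 0.167), and both calls of Sh among the arrays of lower spike-in signal alone (0.153 and 0.0564). Of these 4, prt, Rdl and Tomosyn had no overlap between neighbouring groups. Whether such genes are more frequent among the 41 than among all genes was not tested.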
